A study of Mus musculus with 6 samples.

Results

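Zcchc7 and 7 further genes whose products hand RNA to the exosome were examined in mouse granulocytes kept with or without caffeine. The members are the genes listed as Zcchc7, Zcchc8, Rbm7, Skiv2l2, Papd5, Papd7, Skiv2l and Ttc37, and every probe set annotated to exactly 1 of them was taken. All 8 genes were found, on 9 of the 21640 probe sets with a single gene symbol, or 8 of 19937 genes. Zcchc7 had 2 probe sets and each other gene had 1. Skiv2l2, Papd5 and Papd7 now carry the symbols Mtrex, Tent4b and Tent4a, which are used below. Zcchc7 was chosen by its measured caffeine-plus against caffeine-minus difference, and the others for working beside it or in the same pathway with that contrast known. The values of all 8 genes are therefore a description, and no p-value is given for them.

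The groups were 3 caffeine-plus and 3 caffeine-minus samples of C57BL/6J granulocytes, each on 1 Affymetrix Mouse Gene 1.0 ST array. Per the labels' protocols, cells were cultured with 15 mM caffeine for 4 hours and washed 2 times, then received 2 µg/ml actinomycin D, which blocks transcription, for another 4 hours. Caffeine was present again in this second incubation in the caffeine-plus cultures and absent from it in the caffeine-minus cultures. Read this way the groups share the first caffeine exposure and the actinomycin D, although the source of the caffeine-minus samples is given as untreated with caffeine. Caffeine was used to inhibit nonsense-mediated decay (NMD), in which mRNAs with premature stop codons are degraded. The labels do not say whether the replicates are separate animals or cultures, so the spread between arrays may be technical. Values are log2, and a difference is the caffeine-plus mean minus the caffeine-minus mean with its standard error (SE) from a limma fit over all 21640 probe sets. A probe set is said to be called where its Benjamini-Hochberg adjusted p in that fit was under 0.05.

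The exosome is a multi-subunit ribonuclease that degrades RNA from the 3′ end in nucleus and cytoplasm, and helicase-containing adaptor complexes deliver its substrates. In human cells the TRAMP complex joins the helicase MTR4 (Mtrex) to the zinc knuckle protein ZCCHC7 and the poly(A) polymerase TENT4B, which adds short A tails that mark nuclear RNA for decay. The nuclear exosome targeting (NEXT) complex joins the same helicase to ZCCHC8 and the RNA-binding protein RBM7 and feeds unstable non-coding transcripts to the exosome. The cytoplasmic SKI complex, with the helicase SKIV2L and the scaffold TTC37, threads mRNA into the exosome, also when ribosomes stall.

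The 6 genes of the nuclear adaptors were all higher in the caffeine-plus arrays, by 1.5-fold for Rbm7 to 6.82-fold for Zcchc7. The SKI members Skiv2l and Ttc37 were at 0.921-fold and 1.02-fold, while the SKI subunit gene Wdr61, not a member, was 1.85-fold higher. In 7 of the 9 member probe sets the lowest caffeine-plus array lay above the highest caffeine-minus array, which was so in 19.8% of all 21640 probe sets. The same 7 were called higher, against 16.3% of all probe sets, and none was called lower by limma, also at an unadjusted p under 0.05, against 21.4%. The median difference over the 9 probe sets was 1.09, against -0.04 over all probe sets. Because the members were chosen with this contrast known, these shares carry no weight as evidence. Arrays report relative levels, and in such bulk RNA fewer cells of a type and less RNA per cell cannot be told apart.

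**Figure D1:**
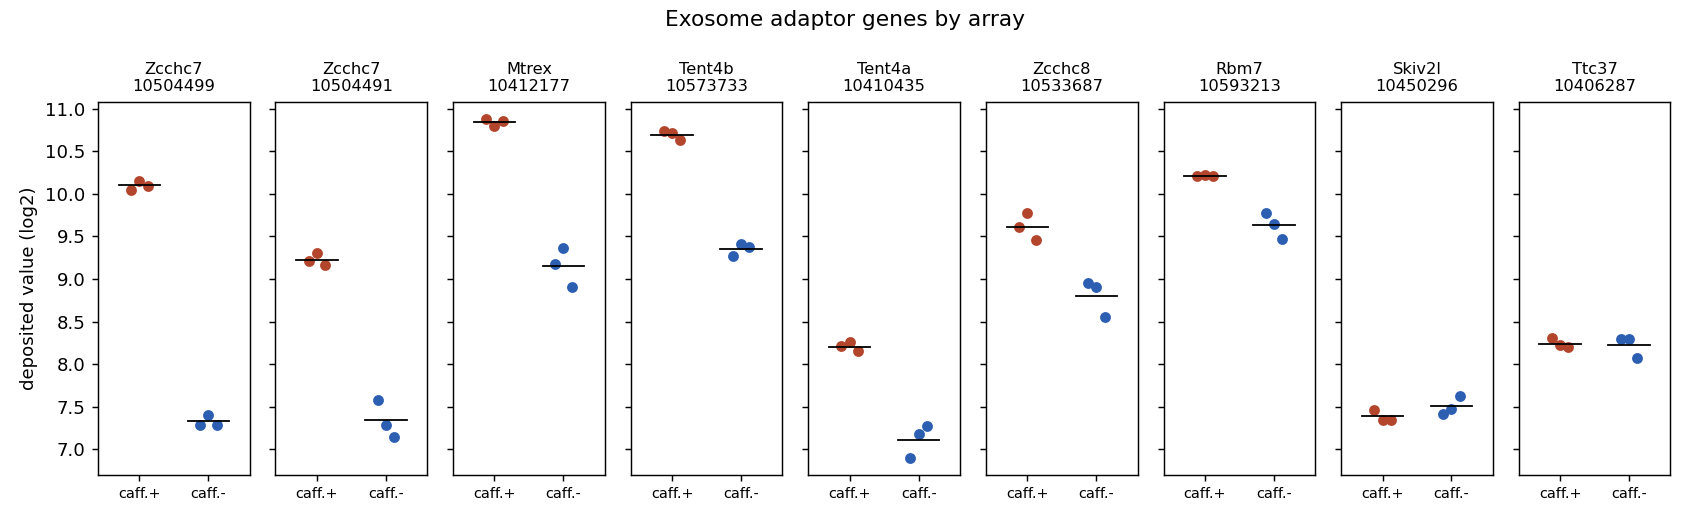
Deposited log2 values of the 9 member probe sets, with 1 point per array, caffeine-plus (caff.+, red) left of caffeine-minus (caff.-, blue), and a bar at each group's mean of 3 arrays. The 7 panels of nuclear adaptor genes show no overlap between groups and the Skiv2l and Ttc37 panels do. Levels in different panels come from different probes and are not comparable.

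Zcchc7, whose yeast relatives Air1 and Air2 bind RNA within TRAMP, had the highest difference of all 21640 probe sets. Its brighter probe set, 10504499, read 10.05, 10.15 and 10.09 in caffeine-plus arrays 1, 2 and 3, against 7.29, 7.40 and 7.29 in caffeine-minus arrays 1, 2 and 3. The means were 10.10 ± 0.05 in caffeine-plus and 7.33 ± 0.06 in caffeine-minus (SD, n = 3 each). The difference was 2.77 ± 0.07, and the groups were 2.65 apart at their nearest arrays. The other probe set, 10504491, read 9.21, 9.30 and 9.16 in the caffeine-plus arrays, against 7.58, 7.29 and 7.15 in the caffeine-minus arrays. Its groups did not overlap either, and caffeine-minus array 1 was the nearest to the caffeine-plus arrays, at 1.57 below the lowest of them. This gave a difference of 1.88 ± 0.10, or 3.68-fold, which ranked 31 of 21640. The 95% intervals of the fit were 2.61 to 2.93 for probe set 10504499 and 1.66 to 2.10 for 10504491. Both come from the same arrays, and the gene was chosen by this difference, so they describe spread only. Whether the 2 probe sets differ was not tested. Which exons each covers was not known here, and no gene overlaps the span of Zcchc7 in the reference annotation. Its nearest coding neighbours there are Pax5 and Grhpr.

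Mtrex encodes MTR4, the helicase that TRAMP and NEXT share. Its probe set read 10.88, 10.80 and 10.85 in caffeine-plus arrays 1, 2 and 3, against 9.18, 9.36 and 8.91 in caffeine-minus arrays 1, 2 and 3. The caffeine-plus arrays were close together (SD 0.04), the caffeine-minus arrays were spread wider (SD 0.23), and the groups were 1.44 apart. The difference was 1.69 ± 0.09, or 3.24-fold, and ranked 66 of 21640. The span of Mtrex overlaps that of the phosphatase gene Plpp1 in the reference annotation. The Plpp1 probe set read 6.13 ± 0.06 in caffeine-plus and 5.80 ± 0.05 in caffeine-minus (SD, n = 3 each), a difference of 0.33 ± 0.10. Whether signal is shared between these genes was not tested.

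Tent4b (formerly Papd5) encodes the poly(A) polymerase of TRAMP. It read 10.74, 10.71 and 10.63 in caffeine-plus arrays 1, 2 and 3, against 9.27, 9.41 and 9.37 in caffeine-minus arrays 1, 2 and 3. Both groups were tight, with an SD of 0.06 in caffeine-plus and 0.07 in caffeine-minus, and did not overlap. The difference was 1.34 ± 0.06, or 2.53-fold, and ranked 227 of 21640. Its paralogue Tent4a (formerly Papd7), a related polymerase, read 8.21, 8.26 and 8.15 in the caffeine-plus arrays, against 6.90, 7.18 and 7.27 in the caffeine-minus arrays. Tent4a again showed no overlap, with caffeine-minus array 1 the lowest, and its difference was 1.09 ± 0.10, or 2.13-fold. In both polymerase genes every caffeine-plus array lay above every caffeine-minus array.

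The NEXT genes other than Mtrex had the smallest differences among the nuclear members. Zcchc8, the scaffold of the complex, read 9.61, 9.77 and 9.46 in caffeine-plus arrays 1, 2 and 3, against 8.95, 8.90 and 8.55 in caffeine-minus arrays 1, 2 and 3. Array 3 was the lowest of each group, and the groups stayed 0.51 apart, with a difference of 0.81 ± 0.11, or 1.76-fold. Rbm7, which binds uridine-rich RNA for NEXT, read 10.21, 10.22 and 10.21 in the caffeine-plus arrays, against 9.78, 9.64 and 9.47 in the caffeine-minus arrays. Its caffeine-plus arrays were nearly identical and lay 0.43 above the highest caffeine-minus array. The difference was 0.58 ± 0.08, or 1.5-fold, and 8.28% of all probe sets had a larger one, against 4.9% for Zcchc8. Over the 5 probe sets of Zcchc7, Mtrex, Tent4b and Tent4a the median difference was 1.69, and over the 3 probe sets of NEXT genes, Mtrex counted in both, it was 0.81.

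In the SKI members Skiv2l and Ttc37 the groups overlapped and neither probe set was called. The gene of the other SKI subunit, Wdr61, is not a member, and it was 1.85-fold higher in caffeine-plus without overlap. Skiv2l, the cytoplasmic helicase related to Mtrex, read 7.46, 7.35 and 7.35 in caffeine-plus arrays 1, 2 and 3, against 7.42, 7.47 and 7.63 in caffeine-minus arrays 1, 2 and 3. Caffeine-plus array 1 lay above caffeine-minus array 1, while the other caffeine-plus arrays lay below all caffeine-minus arrays. The difference was -0.12 ± 0.09, with a 95% interval of -0.31 to 0.08. Ttc37, which encodes the scaffold of the complex, read 8.31, 8.22 and 8.20 in the caffeine-plus arrays, against 8.29, 8.30 and 8.07 in the caffeine-minus arrays. The Ttc37 groups overlapped almost fully, and the difference was 0.03 ± 0.09, with a 95% interval of -0.16 to 0.21. The difference between nuclear and SKI members was itself not tested. Without caffeine-plus array 1 or caffeine-minus array 3 the Ttc37 difference was below 0, at -0.01 and -0.05. The span of Skiv2l contains or overlaps 2 microRNA genes in the reference annotation, Mir6971 and Mir6970.

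**Figure D2:**
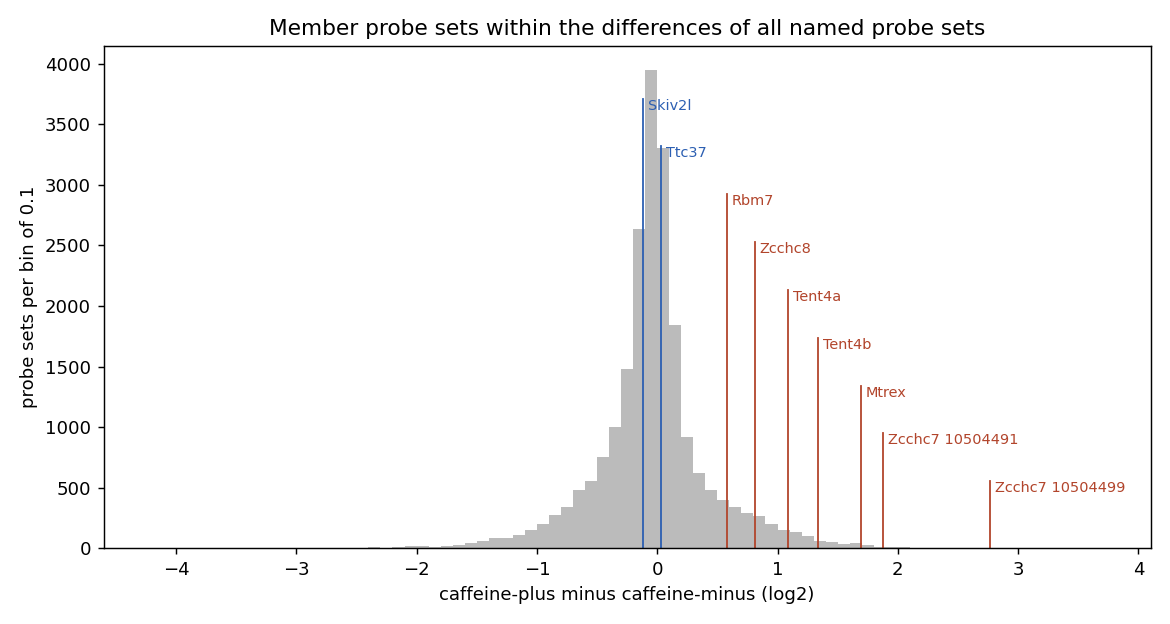
Histogram of the caffeine-plus minus caffeine-minus difference (log2) over the 21640 probe sets with 1 gene symbol, in bins of 0.1, with a vertical line at each member probe set (red for TRAMP and NEXT genes, blue for SKI genes; line heights only separate the names). Skiv2l and Ttc37 fall in the central peak, and the nuclear members run from 0.58 for Rbm7 to 2.77 for Zcchc7 at the right edge.

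The members were chosen with this contrast known, and its calls depend on spread, so the values on spread are a description too. The spread between replicates was larger in the caffeine-minus arrays for 9 of the 9 member probe sets. For the brighter Zcchc7 probe set it was so only narrowly, with an SD of 0.05 in caffeine-plus and 0.06 in caffeine-minus. Over all probe sets the spread was larger in caffeine-minus in 60.7%. The median SD of the members was 0.0585 in caffeine-plus and 0.155 in caffeine-minus, and over all probe sets it was 0.0916 in caffeine-plus and 0.116 in caffeine-minus. Caffeine-minus array 3 was the lowest of its group by unrounded values in 6 of the 9 member probe sets and in 36.9% of all probe sets. Without that array the difference was 0.69 for Zcchc8, 0.50 for Rbm7, 1.57 for Mtrex and 2.75 for the brighter Zcchc7 probe set. It was 1.35 for Tent4b and 1.16 for Tent4a, against 1.34 and 1.09 with all arrays. In that fit 7 member probe sets were again called higher, and over all 21640 probe sets 3454 were called higher and 4692 lower.

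Across the 6 arrays, the gene most like the brighter Zcchc7 probe set was Ifrd1, a transcriptional co-regulator. Likeness was the root mean square distance between log2 profiles centred on their own means, and it was 0.101 for Ifrd1. The orphan nuclear receptor gene Nr4a1 followed at 0.142, the phosphatase 4 regulatory subunit gene Ppp4r3a at 0.226, the RNA polymerase I factor gene Taf1d, through a dimmer probe set, at 0.258, and the receptor gene P2ry10 at 0.271. These 5 also hold ranks 2 to 6 of the difference, since with 2 groups this measure follows the size of the difference. Among the members Mtrex was the nearest other gene, at 0.55, followed by Tent4b at 0.72, and Skiv2l was the farthest, at 1.45.

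Sequence at the gene starts is shown for the 3 member genes with the largest differences and for Ttc37, which was not called. Each is the RefSeq window on GRCm38.p6 from 250 bases before to 50 bases after the start, read 5′ to 3′ on the gene's strand, for Zcchc7 at chr4:44756309-44756608 (+), Mtrex at chr13:112927331-112927630 (-), Tent4b at chr8:88198963-88199262 (+, the first of 2 starts) and Ttc37 at chr13:76098484-76098783 (+). Capitals mark matches on either strand to any of the motifs named after the sequences.
Zcchc7: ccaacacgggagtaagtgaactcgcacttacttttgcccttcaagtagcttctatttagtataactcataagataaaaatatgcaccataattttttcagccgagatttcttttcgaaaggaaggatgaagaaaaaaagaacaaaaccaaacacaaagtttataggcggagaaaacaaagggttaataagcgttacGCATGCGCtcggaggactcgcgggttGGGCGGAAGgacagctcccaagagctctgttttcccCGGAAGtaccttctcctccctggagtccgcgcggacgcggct
Mtrex: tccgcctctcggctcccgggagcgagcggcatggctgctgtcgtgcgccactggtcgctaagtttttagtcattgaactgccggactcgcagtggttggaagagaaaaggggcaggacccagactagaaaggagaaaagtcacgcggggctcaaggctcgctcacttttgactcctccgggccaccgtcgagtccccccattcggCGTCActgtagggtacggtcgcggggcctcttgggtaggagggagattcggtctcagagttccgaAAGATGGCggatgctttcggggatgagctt
Tent4b: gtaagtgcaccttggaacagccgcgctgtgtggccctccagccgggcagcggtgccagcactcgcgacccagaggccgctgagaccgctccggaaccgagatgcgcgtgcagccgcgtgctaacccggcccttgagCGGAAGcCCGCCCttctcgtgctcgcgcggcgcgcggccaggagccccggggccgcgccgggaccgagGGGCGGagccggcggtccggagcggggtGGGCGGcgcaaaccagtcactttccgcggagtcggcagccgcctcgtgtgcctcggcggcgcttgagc
Ttc37: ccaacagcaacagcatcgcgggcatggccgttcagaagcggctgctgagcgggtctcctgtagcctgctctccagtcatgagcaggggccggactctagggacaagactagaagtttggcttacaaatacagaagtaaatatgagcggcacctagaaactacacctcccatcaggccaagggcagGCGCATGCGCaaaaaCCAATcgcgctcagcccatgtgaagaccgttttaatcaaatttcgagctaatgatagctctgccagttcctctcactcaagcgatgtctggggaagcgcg

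Windows were held for 7 of the 8 genes, 8 windows in all. The 9 motifs, chosen after a longer set of letter strings had been searched in these windows, with the NRF1 letters changed after matches were seen, were the cAMP response element (TGACGTCA), its core (TGACG), the AP-1 site (TGANTCA), the CCAAT box (spelled as named), the GC box (GGGCGG), the ETS core (CGGAAG), the NRF1 core (GCATGCGC), the YY1 site (AAGATGGC) and the E-box (CACGTG). The cAMP core lies inside the full element, and a GC box and an ETS core can share bases, as they do in the Zcchc7 window. The GC box was in 5 of the 8 member windows, those of Zcchc7, Zcchc8 and Tent4a and both of Tent4b, and in 35.7% of all 32851 windows. The full cAMP response element was in none of the 8 and in 1.79% of all windows, and its core was in those of Rbm7 and Mtrex and in 20.8% of all. The YY1 letters were in the windows of the same genes, Rbm7 and Mtrex, and in 2.75% of all. The NRF1 letters were in the windows of Zcchc7 and Ttc37 and in 2.71% of all. Among these 8 the CCAAT box was in the Ttc37 window alone (37.4% of all). The ETS core was in the windows of Zcchc7, Tent4b and Rbm7 and in 16.9% of all, and the AP-1 and E-box letters were in none of the 8 and in 7.81% and 7.15% of all. A match is a description of letters and not a binding site. Per the protocols both groups received actinomycin D in the second incubation, and whether these letters bear on the differences was not tested.

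Other genes of the exosome pathway were followed in 6 lists that hold no member, each gene at its brightest probe set. Over all 19937 genes taken this way 16.0% were called higher and 21.4% lower, with a median difference of -0.04. For these lists, a rise means called higher in caffeine-plus than in caffeine-minus, and a fall means called lower. No change over time was measured. In the core exosome list 6 of 13 measured genes were called higher, 5 were called lower and 2 were not called, with a median of -0.04. Exosc8, a ring subunit, was 1.87-fold higher, with 10.50 ± 0.06 in caffeine-plus and 9.59 ± 0.12 in caffeine-minus (SD, n = 3 each; limma adjusted p = 1.4e-07). Dis3, the main nuclear catalytic subunit, was 1.80-fold higher (limma adjusted p = 1.9e-07), and Exosc1, a cap subunit, was 1.82-fold lower (limma adjusted p = 4.4e-07). Exosc3, a further cap gene, was 1.46-fold lower (limma adjusted p = 0.00042), while its dimmer probe set differed by -0.10 ± 0.11, with overlapping groups, and was not called (limma adjusted p = 0.57). Without caffeine-plus array 2 the calls of Exosc4 (limma adjusted p = 0.057) and Exosc5 (0.12) were lost, which left 3 falls. Exosc5 also missed the threshold without caffeine-minus array 1 (limma adjusted p = 0.058) and with every probe set tested (0.050).

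The PAXT connection, a further MTR4 adaptor that targets polyadenylated nuclear RNA, and the cap-binding factors that link adaptors to capped transcripts had 5 of 10 genes higher and none lower (limma; also none at an unadjusted p under 0.05), with a median of 0.28. Zfc3h1, the zinc finger scaffold of PAXT, was 2.20-fold higher, with 12.12 ± 0.02 in caffeine-plus and 10.99 ± 0.13 in caffeine-minus (SD, n = 3 each; limma adjusted p = 4.8e-09). Rbm27 was 1.83-fold higher (limma adjusted p = 3.5e-07) and the cap-binding protein gene Ncbp1 1.51-fold higher (limma adjusted p = 1.4e-05). Zc3h3, picked out after its values were seen, had a brightest probe set that varied within groups. It read 5.11, 7.12 and 7.66 in caffeine-plus arrays and 6.73, 6.80 and 8.20 in caffeine-minus arrays. The difference of -0.62 ± 0.51 was not called (limma adjusted p = 0.41). With the replicate number as a block it was called lower (limma adjusted p = 0.047). The dimmer Zc3h3 probe set was 1.44-fold higher (limma adjusted p = 0.0014). Of the other MTR4 partners, 2 rose and 2 fell of 5. The ribosome biogenesis gene Utp18 was 2.60-fold higher (limma adjusted p = 1.8e-07), while Wdr74 was 1.86-fold lower (limma adjusted p = 8.1e-06) and the ATPase gene Nvl 1.40-fold lower (limma adjusted p = 9.1e-05). The other rise, Nrde2, picked out after its values were seen, was 1.25-fold, and it no longer passed once caffeine-plus array 3 or caffeine-minus array 2 was left out (limma adjusted p = 0.11 in each case) or with every probe set tested (0.061).

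Among genes that work with SKI, including that of its other subunit Wdr61, 3 of 4 rose and none fell (limma; 1, Pelo, was lower at an unadjusted p under 0.05), with a median of 0.89. Wdr61, which encodes the WD-repeat subunit of SKI and also belongs to the PAF1 transcription complex, was 1.85-fold higher, with 9.91 ± 0.04 in caffeine-plus and 9.02 ± 0.11 in caffeine-minus (SD, n = 3 each; limma adjusted p = 2.0e-07). Hbs1l, whose locus gives in human cells both a ribosome rescue factor and the SKI7-like bridge from SKI to the exosome, was 2.10-fold higher (limma adjusted p = 1.7e-08), and a second probe set of it was 1.53-fold higher. Aven was 1.86-fold higher (limma adjusted p = 1.5e-06). Pelo, the partner of the rescue factor, differed by -0.22 ± 0.10 and was picked out after its value was seen. The Hbs1l isoforms are not distinguished by these probe sets as annotated here.

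Other non-canonical nucleotidyltransferases, the wider family of Tent4a and Tent4b, had 5 of 9 genes higher and 1 lower, with a median of 0.52. Tut7, a uridylating enzyme, was 2.00-fold higher (limma adjusted p = 4.6e-08), Tent5c 2.11-fold (limma adjusted p = 3.1e-07) and the cytoplasmic poly(A) polymerase gene Tent2 1.51-fold (limma adjusted p = 1.4e-06). Tut1, the uridylyltransferase of U6 RNA, was 1.98-fold lower (limma adjusted p = 2.9e-06). Of 14 other genes with the Zcchc name or its zinc knuckle, 3 rose and 2 fell, with a median of -0.02. Zcchc2 was the highest of them, 2.32-fold higher (limma adjusted p = 2.1e-07). Zcchc9 was 1.30-fold higher (limma adjusted p = 0.00013), Zcchc17 1.89-fold lower (limma adjusted p = 3.9e-05) and Zcchc3 1.80-fold lower (limma adjusted p = 0.00042). Picked out after its values were seen, Zcchc24 (limma adjusted p = 0.069) became a further fall without caffeine-plus array 3 (0.025) or caffeine-minus array 2 (0.039), and with the replicate number as a block (0.049). Zcchc12 (limma adjusted p = 0.11), also picked out afterwards, became a further rise without caffeine-minus array 3 (0.034) and with arrays centred on their medians (0.041).

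**Figure D3:**
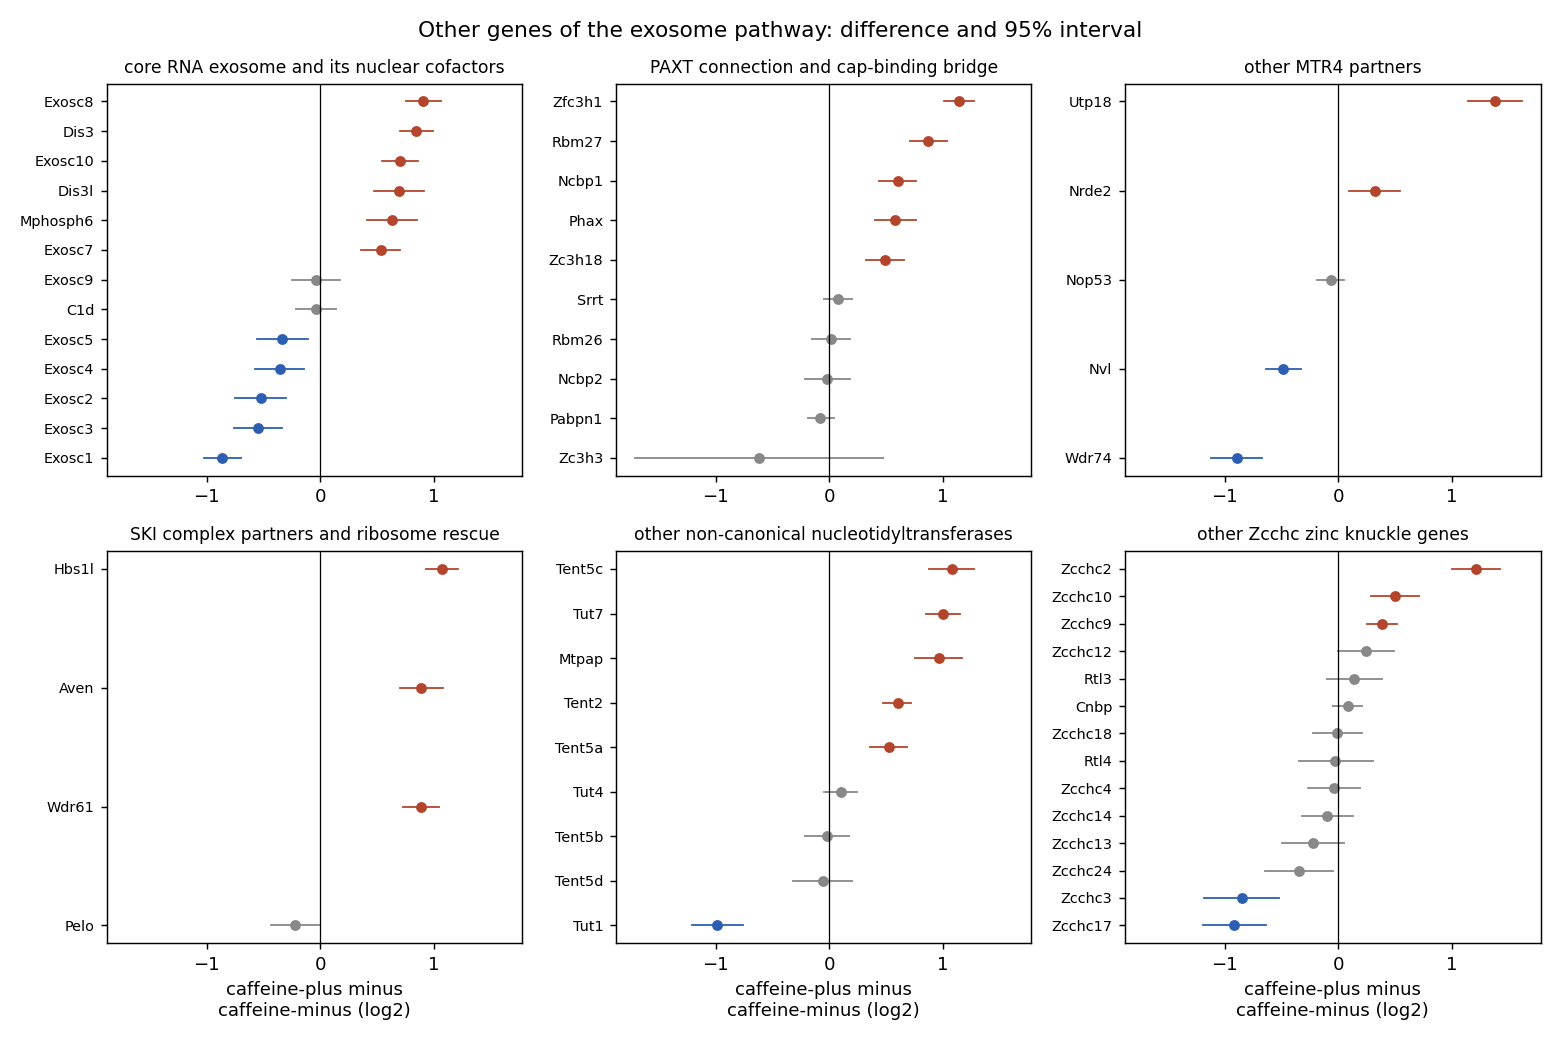
Caffeine-plus minus caffeine-minus difference (log2, horizontal axis) with the 95% interval of the limma fit for the non-member genes of the 6 pathway lists, n = 3 arrays per group. Red genes were called higher, blue lower and grey neither. The core exosome list has 6 genes called higher and 5 called lower, and the SKI partner list has 3 of 4 called higher.

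Across probe sets, pairs of arrays from the same group had Pearson's r of 0.986 to 0.992, and pairs from different groups 0.959 to 0.965. The 15 granulocyte markers had mean log2 values from 6.45 to 12.78, the highest for the myeloperoxidase gene Mpo, and these levels from different probes do not settle the granulocyte label. All 15 were called lower in caffeine-plus, against 21.4% of all genes, and their summed linear signal was 21200 to 21800 in caffeine-plus arrays and 30600 to 32200 in caffeine-minus arrays. Of monocyte and macrophage markers 6 of 11 were lower and 1 higher, with sums of 5280 to 5520 in caffeine-plus and 6550 to 6930 in caffeine-minus. Of dendritic cell markers 6 of 8 were lower, with sums of 1110 to 1170 in caffeine-plus and 1410 to 1510 in caffeine-minus. Of eosinophil, basophil and mast cell markers 4 of 8 were lower and 2 higher, with sums of 5950 to 5980 in caffeine-plus and 8640 to 9510 in caffeine-minus. Of B cell markers 2 of 7 were lower (474 to 528 in caffeine-plus, 711 to 834 in caffeine-minus) and of megakaryocyte markers 1 of 4 (426 to 449 in caffeine-plus, 495 to 531 in caffeine-minus). Of 5 erythroid markers 1 was lower and 1 higher (1370 to 1390 in caffeine-plus, 1020 to 1250 in caffeine-minus), and of 8 T and NK cell markers none was called by limma and 1 was higher at an unadjusted p under 0.05 (345 to 427 in caffeine-plus, 368 to 394 in caffeine-minus). The median difference was -0.61 over the granulocyte markers, -0.51 over the monocyte and macrophage markers and -0.38 over the dendritic cell markers. It was -0.28 over the eosinophil, basophil and mast cell markers and from -0.11 to -0.03 in the other lists, against -0.04 over all genes. Their part in the adaptor results was not tested. The scale has no 0 and no detection calls were used, so no marker was read as absent.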

How the data were processed

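The deposited table gives 1 log2 value for each of 34760 probe sets on 6 arrays. The authors' deposited values were taken as log2 because they run from 1.90 to 13.98 with array medians of 6.49 to 6.60; no header states the unit, and how probes were summarized and normalized is not stated in the labels used here. Per the labels' protocols, biotinylated cDNA was made from 300 ng of total RNA. The number of arrays limits the precision. Platform annotation gives 1 gene symbol for 21640 probe sets, several for 1321 and none here for 11799; symbols were updated through gene identifiers in the GRCm38.p6 gene table (21553 matched). The caffeine-plus and caffeine-minus arrays were compared in R 4.3.3 by lmFit and eBayes of limma 3.58.1 (intensity trend, two-sided), with Benjamini-Hochberg adjustment over the 21640 probe sets and a threshold of 0.05. The members, lists and tests were chosen with earlier results of these data known. Named are all members, up to 3 genes per pathway list with the smallest p, up to 2 called against its majority, and the 5 genes most like Zcchc7. Pathway genes named outside this rule are marked as picked out afterwards. Both groups carry replicate numbers 1 to 3, and whether equal numbers are pairs is not known. The deviations of equal numbers correlated at -0.033, 0.186 and 0.276, and those of unequal numbers at -0.266 to 0.116. These few values do not settle the pairing, so the main fit was unpaired and a replicate block was tried as an alternative. In simulated data with 200 changed among 21640 probe sets, the fit recovered 48% of changes of 0.5 and 97% of changes of 1. In the data many more were called, 3538 higher and 4625 lower. The Benjamini-Hochberg adjustment depends on that share, so the recovery does not give the power of this comparison. The settings varied were the replicate block, quantile normalization, median centring, 2 filters on dim probe sets, the probe sets tested, the variance moderation and each array left out in turn.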

Additional observations from a re-analysis of the deposited data

How the results depend on the processing

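Under 15 alternative settings the 7 member probe sets of nuclear adaptor genes were called higher wherever they were tested, and Skiv2l and Ttc37 were not called. The lowest count was 6, with 1 probe set per gene, which leaves out the dimmer Zcchc7 probe set. Over all probe sets tested, whose number varies with the setting, 3159 to 4820 were called higher and 3900 to 5626 lower. The members were chosen with this contrast known, so their calls on the same arrays carry no weight as evidence. The difference of the brighter Zcchc7 probe set ran from 2.74 to 2.83, that of Mtrex from 1.57 to 1.80 and that of Rbm7 from 0.50 to 0.66. With the replicate number as a block, 3711 probe sets were called higher and 4979 lower, against 3538 and 4625 without it, and 7 member probe sets were again called higher. The block also gave the PAXT and cap-binding list 1 fall, Zc3h3, against 0, and the zinc knuckle list 3 falls, with Zcchc24 added, against 2. The pairing check is given with the processing. The falls in the core exosome list ran from 3 to 5 with each array left out, the rises among the other MTR4 partners from 1 to 2, and these rises numbered 1 when every probe set was tested. Dim probe sets can understate a change on these arrays, and no detection calls were used here.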
